A study of Mus musculus with 39 samples.

Results

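Oxidative phosphorylation is the production of ATP at the mitochondrial inner membrane. Complex I (NADH dehydrogenase), complex II (succinate dehydrogenase), complex III (ubiquinol-cytochrome c reductase) and complex IV (cytochrome c oxidase) pass electrons to oxygen, and complex V, the ATP synthase, uses the proton gradient that complexes I, III and IV build. Most subunits are encoded in the nucleus and imported; osteoclasts and muscle fibres are known for their many mitochondria, whereas mature red cells of mammals have none. The nuclear genes described here were the rows of gene counts from mouse cortical bone whose Ensembl identifier carries a protein-coding symbol that begins with Nduf, Uqcr or Atp5, or with Cox and a digit, or that is Sdha, Sdhb, Sdhc or Sdhd. They came to 99 of 37583 genes. By role, 37 belonged to complex I, 4 to complex II, 8 to complex III, 19 to complex IV, which here includes Ndufa4 and its homologue Ndufa4l2, and 15 to complex V. A further 11 encode assembly factors, and 5 others carry such a symbol: Cox7a2l, a factor of respiratory supercomplexes, Cox4nb, Atp5s, Atp5sl and Atp5l-ps1. Cox4nb, a neighbour of Cox4i1, is known as a subunit of an endoplasmic reticulum membrane complex and not of cytochrome c oxidase.

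RNA from cortical bone was sequenced in 39 libraries of 4 groups. A set of 8 libraries is labelled as a double knockout of the salt-inducible kinases Sik2 and Sik3 (DKO), and 8 are its wild type (WT). Another 12 libraries come from mice that carry the parathyroid hormone receptor Pth1r with the activating change H223R under the Col1a1 promoter (C1HR), which acts in cells of the osteoblast lineage, and 11 are the WT of that line. How Sik2 and Sik3 were deleted, and the age, sex and strain of the mice, are not given in the sources used here. The description of the study counts 6 WT where 8 are labelled, and it says that marrow was left in the C1HR bones and their controls, while the protocol attached to the libraries says that it was flushed out. Nothing states that each library is a different mouse, so the p-values measure the spread between these libraries, which may be technical.

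Reads assigned to genes numbered 11444686 to 24922490 per library, and levels are CPM, read counts per gene scaled to the size of the library, after trimmed-mean scaling within each experiment. The targeted genes went in part against the labels. Sik2 was at 20.3 to 38.1 CPM in the libraries labelled DKO and at 15.7 to 25.5 CPM in their WT, and Sik3 was at 80.4 to 125 and 69.6 to 134 CPM. Which exons the deletion removes is not given in the sources used here, so whole-gene counts need not show it, and the group is called by its label throughout. Pth1r was at 351 to 579.6 CPM in C1HR and at 97.7 to 159.8 CPM in its WT. Markers of bone were present in every library: the 13 osteoblast genes summed to at least 55061 CPM and the 10 osteocyte genes to at least 382 CPM, and no gene of either list was at 0 throughout a group. In bulk RNA, fewer cells of a type and less RNA per cell cannot be told apart.

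Levels of the genes spanned a wide range. Per kilobase of exon, Cox4i1, the ubiquitous form of complex IV subunit 4, was the highest in each group, with means of 255.8 CPM per kb in the libraries labelled DKO, 361 in their WT, 459.8 in C1HR and 445 in its WT. Cox8a and Cox6b1, small subunits of the same complex, took the next places in each group. Cox7b2, Cox8c, Atp5l-ps1 and a second identifier of Ndufb8 had at most 9 reads over all 39 libraries and did not pass the filter on low counts in either experiment. Ndufs5, an accessory subunit of complex I, had 6.23 to 13.8 CPM in the WT of the libraries labelled DKO and 0.0771 to 0.721 CPM in the WT of C1HR, and it passed that filter in the first experiment only.

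Reads that map to more than 1 place were not assigned to genes, and some of these genes share sequence with other places in the genome. Of the 50-base windows in its exons, all occur again in the genome for Atp5g2, 86.5% for Atp5l, 62.2% for Cox5b, 57.5% for Cox7a2l and 39.97% for Ndufs5. Among the subunits of complexes I to V without tissue isoforms, the 9 with 20% or more repeated windows had a median of 10.8 CPM per kb in the WT of the libraries labelled DKO, against 57.6 CPM per kb for the 66 others. In the WT of C1HR these medians were 5.63 and 57.5 CPM per kb. The 9 spanned most of the range of levels, and Cox8a, with 20.4% repeated windows, was among the highest genes. The part of repeated sequence in these levels was not tested. The fold changes of such genes rest on part of each transcript, and Atp5g2, with no exon window found only once, had 654 reads over all libraries. Atp5g1, Atp5g2 and Atp5g3 encode the same mature c-ring protein, and Atp5g3 made up 94.7% (median) of their summed CPM per kb in the WT of the libraries labelled DKO and 96.7% in the WT of C1HR. Repeated windows make up 0% of Atp5g3, 26.1% of Atp5g1 and all of Atp5g2. These are thus shares of the assigned reads and need not be those of the transcripts.

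**Figure D1:**
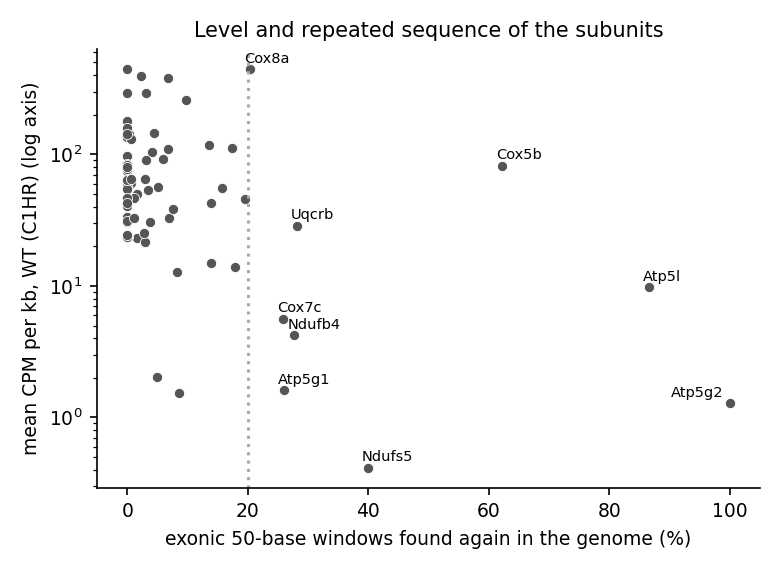
Mean CPM per kb of exon (log axis) in the WT libraries of C1HR (n = 11) against the percent of 50-base exon windows that occur again in the genome, with 1 point per subunit of complexes I to V other than tissue isoforms. The named genes lie at or above 20% (vertical line), from Cox8a at 443 CPM per kb to Ndufs5 at 0.414.

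Sdha and Sdhd, subunits of complex II, were called lower in both experiments, and Cox6b2, a complex IV isoform, moved in opposite directions. Their promoters are shown because NRF1 and the ETS factor GABP are known regulators of respiratory genes. For NRF1 the letters GCGC, any base and then TGCGC, and for ETS factors CCGGAAG, were searched on both strands in the 250 bases before the start of each gene. The NRF1 letters were found in 18.2% of the 77 genes with a RefSeq window and in 4.23% of 27025 genes, and the ETS letters in 19.5% and 7.83%. The windows are from RefSeq, build GRCm38.p6, and all lie on the minus strand: Sdha at chr13:74350241-74350490, Sdhd at chr9:50603850-50604099 and Cox6b2 at chr7:4753095-4753344. They are written 5′ to 3′, and capitals mark matches to either motif, which do not overlap in these windows.
Sdha: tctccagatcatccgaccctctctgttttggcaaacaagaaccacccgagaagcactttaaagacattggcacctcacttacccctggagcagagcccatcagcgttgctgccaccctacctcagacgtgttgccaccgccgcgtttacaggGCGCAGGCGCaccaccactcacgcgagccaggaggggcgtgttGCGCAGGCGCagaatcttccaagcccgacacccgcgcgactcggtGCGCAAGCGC
Sdhd: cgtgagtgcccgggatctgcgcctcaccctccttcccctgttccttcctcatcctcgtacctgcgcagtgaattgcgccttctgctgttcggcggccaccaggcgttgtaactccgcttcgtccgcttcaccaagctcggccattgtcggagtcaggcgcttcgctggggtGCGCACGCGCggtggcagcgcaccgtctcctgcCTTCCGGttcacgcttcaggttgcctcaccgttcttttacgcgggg
Cox6b2: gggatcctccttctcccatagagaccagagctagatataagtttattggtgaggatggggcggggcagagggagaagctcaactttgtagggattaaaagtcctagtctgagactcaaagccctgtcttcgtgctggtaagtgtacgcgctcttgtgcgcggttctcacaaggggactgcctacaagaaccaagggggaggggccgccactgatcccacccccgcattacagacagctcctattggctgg
A match is a description of the letters and not a binding site, and Cox6b2 has neither motif in this window. Atp5b and Cox5a, which were also called lower in both experiments, have neither motif in theirs. In the libraries labelled DKO the median log2 fold change was -0.37 for the 14 tested genes with NRF1 letters, -0.43 for the 15 with ETS letters and -0.40 for the 50 with neither. In C1HR these medians were -0.26, -0.14 and -0.19.

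In the libraries labelled DKO, genes of all 5 complexes were lower than in WT. Of 95 genes tested, 66 fell and 1 rose at an adjusted p under 0.05 (edgeR quasi-likelihood test, Benjamini-Hochberg over all genes), where 30.9% of all 15479 genes tested fell and 24.1% rose. The falls were small. None of the 66 passed a 2-fold change, which 6.76% of all genes did in this direction and 10.7% in the other, and the median log2 fold change was -0.42, against -0.090 over all genes tested. By complex, 25 of 36 genes of complex I, 4 of 4 of complex II, 8 of 8 of complex III, 10 of 17 of complex IV and 12 of 15 of complex V fell, with 5 of 11 assembly factors and 2 of 4 others. Every library labelled DKO lay below every WT library for 12 genes, where this held for 4.08% of all genes. Among them were Ndufa13, Ndufb6, Ndufs3, Sdha, Sdhb, Sdhd, Uqcr11, Uqcrc2, Atp5b, Atp5d and Atp5g1.

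**Figure D2:**
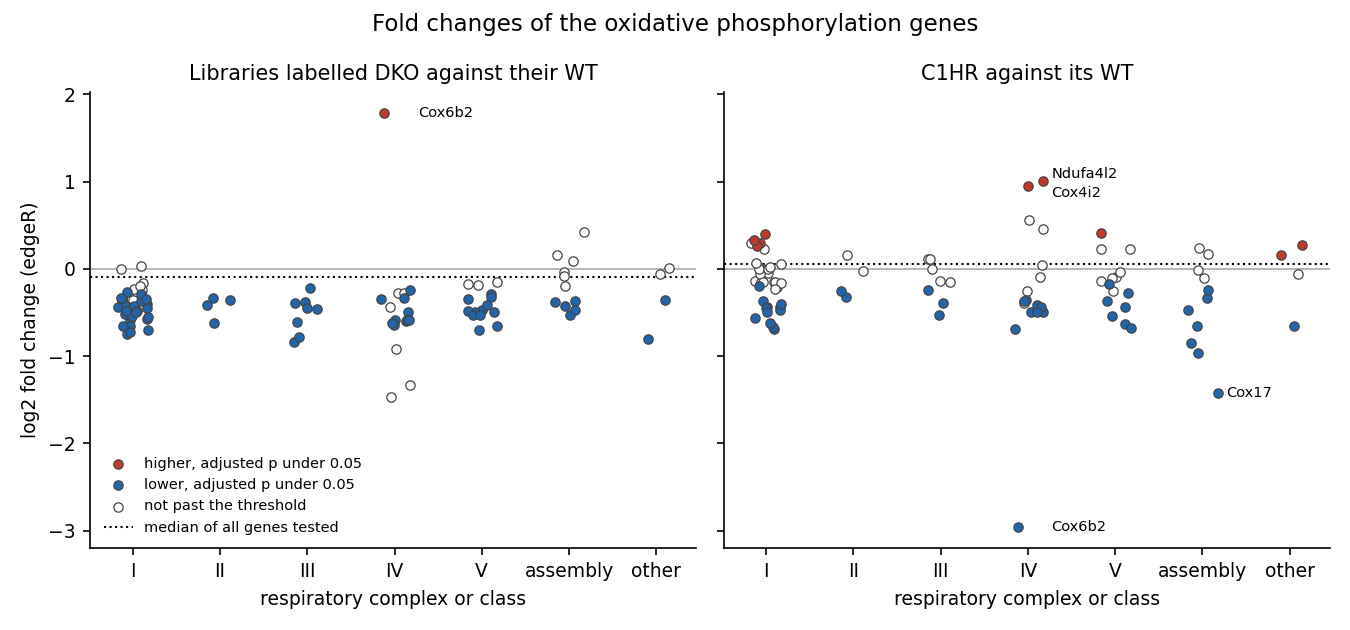
Log2 fold change of each tested gene by complex or class, for the libraries labelled DKO (left, n = 8 against 8) and for C1HR (right, n = 12 against 11). Filled points passed an adjusted p under 0.05 (blue lower, red higher) and the dotted line is the median of all genes tested; 66 points are blue and 1 is red on the left, and 41 are blue and 9 are red on the right.

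The scaling sets how many of these falls are called. With library totals in place of trimmed-mean factors, the median over all genes moved from -0.090 to 0.12, and 15 genes were lower and 4 higher. The share of all genes called with library totals was not counted. The genes' median lay -0.33 from that of all genes with trimmed-mean factors and -0.34 from it with library totals. With trimmed-mean factors it lay -0.24 from it without WT library 5, and -0.23 without WT libraries 5 and 6. The 15 were lower under each of 8 ways of fitting all libraries, among them Ndufa10, Ndufa13, Ndufb5, Ndufc1, Ndufs3, Sdhb, Uqcr10, Uqcr11, Uqcrq, Cox4i1, Atp5d, Atp5g1, Cox7a2l and Cox10.

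In complex I, 6 of the 7 core genes tested fell. Ndufs3, a core subunit of the arm that faces the matrix, was at 24.5 to 31.9 CPM with a median of 25.5 in the libraries labelled DKO and at 32.2 to 40.2 CPM with a median of 36.8 in WT. No library of 1 group reached the range of the other. It fell with the smallest p of the complex (-0.48 on the log2 scale with SE 0.067, adjusted p = 4.98e-05 by edgeR). Ndufv1, which binds NADH, also fell (-0.29 on the log2 scale with SE 0.087, adjusted p = 0.00968 by edgeR). Ndufs1, the largest core subunit, was at 77.1 ± 6.86 CPM against 88.1 ± 17.4 (SD, n = 8 each) and did not pass the test (-0.19 on the log2 scale with SE 0.10, adjusted p = 0.125 by edgeR).

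Among the accessory subunits of complex I, Ndufa13, also known as GRIM-19, was at 46.98 to 67.3 CPM with a median of 56.6 in the libraries labelled DKO and at 70.95 to 156 CPM with a median of 91.2 in WT. The groups did not overlap, and 30.2% of its exon bases overlap Tssk6. Its fall was the largest of the complex (-0.74 on the log2 scale with SE 0.13, adjusted p = 0.000243 by edgeR). Ndufb4 was at 1.75 to 4.65 against 3.09 to 11.2 CPM, with 27.7% repeated windows (-0.73 on the log2 scale with SE 0.27, adjusted p = 0.0310 by edgeR). That call was lost without any 1 of 6 libraries (DKO 4, 5 or 6, or WT 4, 5 or 6; edgeR adjusted p from 0.0507 to 0.0704), and without WT 5, its highest library, the log2 fold change was -0.47.

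All 4 genes of complex II, which is also an enzyme of the tricarboxylic acid cycle, fell. Sdhb, the iron-sulfur subunit, was at 68.8 to 97.5 CPM with a median of 88.2 in the libraries labelled DKO and at 108 to 182 CPM with a median of 129.5 in WT. No library of either group lay within the range of the other. It was 35.2% lower (-0.62 on the log2 scale with SE 0.10, adjusted p = 0.000120 by edgeR). Sdha, the flavoprotein that oxidises succinate, was at 161 to 213 CPM with a median of 194 in the libraries labelled DKO and at 215 to 274 CPM with a median of 233 in WT. These groups did not overlap either (-0.34 on the log2 scale with SE 0.072, adjusted p = 0.00112 by edgeR). Sdhd, a membrane anchor of the complex, fell too (-0.42 on the log2 scale with SE 0.079, adjusted p = 0.000417 by edgeR), and with library totals that call was lost (edgeR adjusted p = 0.0965).

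All 8 genes of complex III fell as well. Uqcr10, a small subunit of this complex, was at 43.8 to 68.9 CPM with a median of 52.6 in the libraries labelled DKO and at 65.2 to 131 CPM with a median of 93.5 in WT. The groups overlapped at their edges. Its fall was the largest among the genes called in this comparison, 1.79-fold (-0.84 on the log2 scale with SE 0.12, adjusted p = 7.60e-05 by edgeR). Uqcr11, another small subunit, was at 18.3 ± 2.38 CPM against 31.5 ± 7.81 (SD, n = 8 each), with no overlap (-0.78 on the log2 scale with SE 0.14, adjusted p = 0.000228 by edgeR). Uqcrfs1, the Rieske iron-sulfur protein, had a log2 fold change of -0.38 (SE 0.11) and Uqcrc1, a core protein, one of -0.21 (SE 0.070), and both passed the test.

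In complex IV, Cox4i1 was at 143 to 225 CPM with a median of 169 in the libraries labelled DKO and at 190.1 to 281 CPM with a median of 257 in WT. The ranges overlapped, and the gene fell (-0.50 on the log2 scale with SE 0.11, adjusted p = 0.00103 by edgeR). Cox7a2, the ubiquitous form of subunit 7a, fell too (-0.59 on the log2 scale with SE 0.18, adjusted p = 0.0104 by edgeR), while its counterparts Cox6a1 (log2 fold change -0.27) and Cox8a (-0.28) and the subunit Ndufa4 (-0.44) did not pass the test, with edgeR adjusted p of 0.101, 0.0942 and 0.0811. Without DKO 1 or without WT 6, Cox6a1 and Cox8a passed it (edgeR adjusted p from 0.0207 to 0.0279 for Cox6a1). Cox5a (-0.24 on the log2 scale with SE 0.094, adjusted p = 0.0374 by edgeR) and Cox6b1 (-0.34 on the log2 scale with SE 0.14, adjusted p = 0.0492 by edgeR) lay near the threshold. The call of Cox5a was lost without any 1 of 10 libraries (DKO 2, 4, 5, 7 or 8, or WT 1, 2, 5, 6 or 8; edgeR adjusted p from 0.0509 to 0.0888), and that of Cox6b1 without any 1 of 14, all but DKO 1 and WT 7 (edgeR adjusted p from 0.0538 to 0.0959).

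In complex V, Atp5d, the delta chain of the central stalk, was at 125 to 171 CPM with a median of 147 in the libraries labelled DKO and at 176 to 236 CPM with a median of 212 in WT. Each library labelled DKO lay below each WT (-0.49 on the log2 scale with SE 0.080, adjusted p = 0.000142 by edgeR). Atp5b, the catalytic beta chain, was at 592 to 716 CPM with a median of 675 in the libraries labelled DKO and at 756 to 956 CPM with a median of 806 in WT. Its groups were apart as well (-0.33 on the log2 scale with SE 0.076, adjusted p = 0.00195 by edgeR), and Atp5a1, the alpha chain, fell with it (-0.29 on the log2 scale with SE 0.074, adjusted p = 0.00331 by edgeR). Of the c-ring genes, Atp5g1 was at 6.60 ± 0.920 against 10.7 ± 1.86 CPM (SD, n = 8 each), which fell by 0.70 on the log2 scale (SE 0.12), and Atp5g3 had a log2 fold change of -0.34 (SE 0.090). Both passed the test, and Atp5g2, with every window repeated, did not (-0.17 on the log2 scale with SE 0.24, adjusted p = 0.553 by edgeR).

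Outside the complexes, Cox7a2l was at 28.8 to 50.9 CPM with a median of 34.2 in the libraries labelled DKO and at 45.8 to 75.4 CPM with a median of 64.9 in WT. The groups overlapped little, and the gene fell (-0.81 on the log2 scale with SE 0.12, adjusted p = 7.46e-05 by edgeR). Cox10, an enzyme of the haem A synthesis that cytochrome c oxidase needs, was at 14.8 ± 1.45 against 21.5 ± 2.75 CPM (SD, n = 8 each) and had the smallest p among the assembly factors (-0.53 on the log2 scale with SE 0.089, adjusted p = 0.000175 by edgeR). Cox17, the copper chaperone of complex IV, was at 25.02 to 43.8 CPM with a median of 26.5 in the libraries labelled DKO and at 15.2 to 44.8 CPM with a median of 17.5 in WT. WT 5 alone held the highest value of its group, and Cox17 did not pass the test (0.42 on the log2 scale with SE 0.21, adjusted p = 0.0954 by edgeR). Without WT 5 it was higher, by 0.65 on the log2 scale (SE 0.14, edgeR adjusted p = 0.000955).

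In C1HR the picture was mixed. Of 94 genes tested, 41 fell and 9 rose, where 40.6% of all 13976 genes tested fell and 43.7% rose. With all libraries, the share of these genes that fell was near that of all genes, and a smaller share rose. Without C1HR 7 and 11, 67 fell and 6 rose, at a median log2 fold change of -0.32 against 0.014 over all genes. The shares of all genes that fell or rose without these libraries were not counted. With all libraries the genes' median log2 fold change was -0.16, against 0.050 over all genes. By complex, 12 of 35 genes of complex I fell and 4 rose, 2 of 4 of complex II fell, 3 of 8 of complex III fell, 9 of 17 of complex IV fell and 2 rose, and 7 of 15 of complex V fell and 1 rose. Of the 11 assembly factors, 7 fell. Among the genes called, Cox6b2 and Cox17 fell by more than 2-fold and Ndufa4l2 rose by more, where 16.8% of all genes fell and 22.1% rose that far. Every C1HR library lay below every WT library for 14 genes, where this held for 24.9% of all genes, and above for 0, where it held for 27.8%.

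With library totals the median over all genes moved from 0.050 to -0.35, and 68 genes fell and 2 rose, the 2 being Cox4i2 and Ndufa4l2. How many of all genes fell or rose in that fit was not counted. Of all that was tallied for a library, the median share mapped to more than 1 place was 29.7% in C1HR and 48.7% in its WT. It was 30.8% in the libraries labelled DKO and 26.8% in their WT. Unaligned reads are absent from these tallies, and a read with several places may be tallied more than once, so these are not shares of all reads. The part of this share in the results was not tested.

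In complex I, Ndufs1 was at 47.2 to 66.5 CPM with a median of 56.6 in C1HR and at 80.6 to 94.4 CPM with a median of 90.9 in WT. All C1HR libraries lay below all WT (-0.67 on the log2 scale with SE 0.055, adjusted p = 2.53e-11 by edgeR). Ndufv1 was at 56.3 to 84.9 CPM with a median of 66.7 in C1HR and at 93.9 to 112 CPM with a median of 103 in WT. These ranges were apart as well (-0.62 on the log2 scale with SE 0.055, adjusted p = 9.75e-11 by edgeR). The accessory subunit Ndufb7 had the largest fall of the complex, from 109 ± 9.13 CPM (SD, n = 11) to 67.2 ± 11.1 (SD, n = 12; -0.69 on the log2 scale with SE 0.078, adjusted p = 8.52e-09 by edgeR).

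In complex II, Sdha was at 155 to 185 CPM with a median of 167 in C1HR and at 197 to 229 CPM with a median of 209.7 in WT. The groups did not overlap, and Sdha fell (-0.32 on the log2 scale with SE 0.044, adjusted p = 2.26e-07 by edgeR), whereas Sdhb, at 84.3 to 220.0 against 95.5 to 115 CPM, did not pass the test (0.16 on the log2 scale with SE 0.14, adjusted p = 0.313 by edgeR). Sdhd fell (-0.26 on the log2 scale with SE 0.084, adjusted p = 0.00697 by edgeR) at 64.2 to 117 against 85.3 to 112 CPM, where C1HR 11 lay above the WT range, and with upper-quartile scaling the call was lost (edgeR adjusted p = 0.0558). In complex III, Uqcrfs1 was at 58.7 to 94.6 CPM with a median of 72.6 in C1HR and at 95.4 to 114 CPM with a median of 105 in WT. Again no library of one group lay in the range of the other (-0.53 on the log2 scale with SE 0.068, adjusted p = 7.36e-08 by edgeR). Uqcrc1 fell (-0.39 on the log2 scale with SE 0.076, adjusted p = 3.66e-05 by edgeR).

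In complex IV, Cox5a was at 58.01 to 70.4 CPM with a median of 65.6 in C1HR and at 80.6 to 108 CPM with a median of 91.2 in WT. The groups were apart (-0.49 on the log2 scale with SE 0.047, adjusted p = 3.87e-10 by edgeR). The ubiquitous forms Cox6a1, Cox6b1, Cox7a2 and Cox8a fell, with log2 fold changes of -0.50, -0.41, -0.44 and -0.50, and Ndufa4 had -0.37 (edgeR adjusted p = 0.0176). Cox4i1, at 224 to 635 CPM with a median of 248 in C1HR and 272 to 346 CPM with a median of 299 in WT, did not pass the test (0.048 on the log2 scale with SE 0.16, adjusted p = 0.784 by edgeR). Of its 12 C1HR libraries, 9 lay below the WT range and the other 3 (C1HR 7, 10 and 11) above it. In complex V, Atp5b was at 665 to 1068 CPM with a median of 754 in C1HR and at 1085 to 1407 CPM with a median of 1229 in WT. The groups did not overlap (-0.63 on the log2 scale with SE 0.072, adjusted p = 8.97e-09 by edgeR), and those of Atp5a1 did not either (-0.44 on the log2 scale with SE 0.053, adjusted p = 2.42e-08 by edgeR). None of Atp5g1, Atp5g2 and Atp5g3 passed the test with all libraries (log2 fold changes -0.11, 0.23 and -0.14), and Atp5g3 was called lower without C1HR 7 or without C1HR 11 (edgeR adjusted p from 0.00920 to 0.0271).

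The assembly factors held the largest falls after Cox6b2. Cox17 was at 10.9 to 24.7 CPM with a median of 15.5 in C1HR and at 39.2 to 51.8 CPM with a median of 45.4 in WT. The ranges were far apart, and the level was 2.68-fold lower (-1.42 on the log2 scale with SE 0.12, adjusted p = 2.59e-11 by edgeR). Cox11, which also serves copper insertion, fell (-0.97 on the log2 scale with SE 0.13, adjusted p = 2.12e-07 by edgeR) at 1.82 to 4.85 against 4.85 to 7.42 CPM, with 48.3% of its exon bases overlapping Tom1l1. Ndufaf3, an assembly factor of complex I, was at 7.73 to 11.4 CPM with a median of 8.85 in C1HR and at 14.001 to 18.4 CPM with a median of 16.6 in WT. Its groups did not overlap (-0.85 on the log2 scale with SE 0.070, adjusted p = 2.77e-11 by edgeR).

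Of the 9 genes that rose in C1HR, the isoforms Ndufa4l2 and Cox4i2 rose most. Ndufs8, a core subunit with iron-sulfur clusters, was at 75.95 to 139 CPM with a median of 89.4 in C1HR and at 67.2 to 88.9 CPM with a median of 75.5 in WT. The groups overlapped (0.33 on the log2 scale with SE 0.092, adjusted p = 0.00198 by edgeR), and with library totals the log2 fold change was -0.069. Ndufb2, an accessory subunit of complex I (0.40 on the log2 scale with SE 0.16, adjusted p = 0.0209 by edgeR), and Atp5e, the epsilon chain of the ATP synthase (0.41 on the log2 scale with SE 0.19, adjusted p = 0.0463 by edgeR), rose too. Without C1HR 7 and 11 both calls were lost, at log2 fold changes of 0.16 and 0.078. The call of Atp5e was also lost without any 1 of 13 libraries (C1HR 7, 10 or 11, or any WT but 1; edgeR adjusted p from 0.0507 to 0.116).

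A few libraries carried higher levels of the whole set. Summed over complexes I to V, the subunits were at 4886 to 6496 with a median of 5651 CPM in the libraries labelled DKO and at 5897 to 9864 with a median of 7176 in their WT. They were at 5814 to 10863 with a median of 6744 CPM in C1HR and at 7866 to 9878 with a median of 8727 in its WT. WT 5 of the first experiment and C1HR 11 and 7 were the highest of their groups. The genes' median log2 level stood 0.52 above the group's median in WT 5, 0.49 in C1HR 7 and 0.59 in C1HR 11. Short genes outside the set (under 1000 exon bases; 518 genes in the first experiment and 441 in the second) stood 0.41, 0.37 and 0.48 above it, and genes over 3000 bases at -0.058, -0.076 and -0.055. The same libraries had the lowest osteoblast sums of their groups, 88907, 279825 and 256699 CPM. They also had the highest tallied shares mapped to more than 1 place, 41.2%, 34.7% and 36.5%. Without C1HR 7 and 11, 67 genes fell and 6 rose in C1HR. The genes' median then lay -0.33 from that of all genes, against -0.21 with all libraries. Without WT 5, 60 genes were lower and 4 higher in the libraries labelled DKO. Their median log2 fold change was then -0.33, against -0.083 over all genes. Shares of all genes called were not counted in these fits without libraries. The parts of transcript length, of bone cell content and of reads with several places in these results were not tested.

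**Figure D3:**
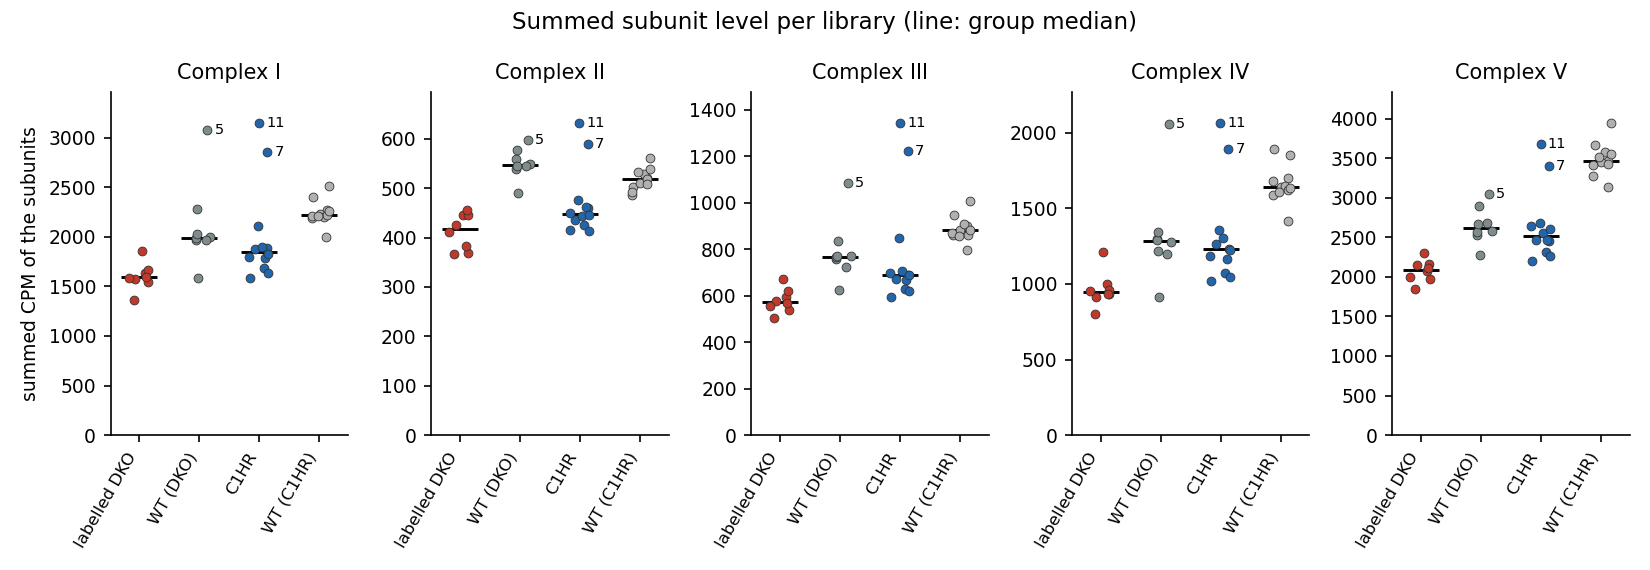
Summed CPM of the subunits of each complex per library (points; linear axes from 0), with the group median as a line. Medians of the libraries labelled DKO and of C1HR lie below those of their WT in each panel, and WT 5 and C1HR 7 and 11 are marked by number.

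Set side by side, 24 of the 94 genes tested in both experiments fell in both, among them Sdha, Sdhd, Uqcrc1, Uqcrfs1, Cox5a, Atp5a1 and Atp5b. With library totals none of these named genes was called lower in the libraries labelled DKO. The edgeR adjusted p was then 0.0965 for Sdhd, 0.2 for Sdha, 0.29 for Uqcrfs1, 0.32 for Atp5b, 0.42 for Atp5a1 and 0.8 for Cox5a. Uqcrc1 had a log2 fold change of 0.00022. Ndufa10 and Ndufs3 were lower in both experiments under each of 8 ways of fitting all libraries. Beside the 24, a further 34 fell in the libraries labelled DKO and did not pass the test in C1HR. Another 16 fell in C1HR and did not pass it in the libraries labelled DKO. Joint calls were not counted over all genes, so whether such numbers are unusual is not known. Of all genes tested, 30.9% fell and 24.1% rose in the libraries labelled DKO, and 40.6% and 43.7% in C1HR. The 7 genes Atp5e, Cox4i2, Cox7a2l, Ndufa13, Ndufa4l2, Ndufb5 and Ndufs8 fell in the libraries labelled DKO and rose in C1HR, and Cox6b2 did the opposite. Of these rises in C1HR, those of Cox4i2 and Ndufa4l2 were called with library totals. Cox7a2l was then called lower (-0.24 on the log2 scale, edgeR adjusted p = 0.00896), and Ndufa13 (-0.10) and Ndufb5 (-0.13) changed sign without a call. In the libraries labelled DKO, library totals lost the falls of Cox4i2, Ndufa4l2, Atp5e and Ndufs8 (edgeR adjusted p of 0.172, 0.0989, 0.223 and 0.105). With library totals, none of the 7 was thus called lower there and higher in C1HR. The fall of Atp5e was also lost without WT 5 and 6 (edgeR adjusted p = 0.0767). The rise of Cox7a2l (0.16 on the log2 scale with SE 0.063, adjusted p = 0.0233 by edgeR) was also lost without C1HR 8 and 9 (edgeR adjusted p = 0.508) and without C1HR 7 and 11 (0.0651), and that of Ndufb5 without C1HR 8 and 9 (0.0622). The difference of the effects, C1HR minus DKO, was tested in a fit of all 4 groups. It was positive for 27 and negative for 19 of 95 genes, where it was positive for 42.0% and negative for 38.1% of all genes tested. Ndufa13 (difference 0.97, SE 0.14, edgeR adjusted p = 1.21e-07) and Cox7a2l (0.90, SE 0.13, edgeR adjusted p = 5.51e-08) were among the 3 positive differences with the smallest p. Cox17 (-1.91, SE 0.23, edgeR adjusted p = 9.76e-10) and Ndufaf3 (-1.08, SE 0.12, edgeR adjusted p = 1.99e-10) were among the 3 negative ones. With library totals 4 differences were positive and 46 negative, and the median over all genes moved from 0.10 to -0.44. Without WT 5 and C1HR 7 and 11, 20 were positive and 31 negative. Shares of all genes were not counted with library totals or without these libraries.

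Among the oxidative phosphorylation genes called in either experiment, the isoform Cox6b2 had the largest change. Cox6b2, known as the form of subunit 6b in testis and sperm, lies on the minus strand at chr7:4703396-4704696 (NCBIM37). It was at 8.60 to 22.7 CPM with a median of 10.5 in the libraries labelled DKO and at 2.05 to 7.13 CPM with a median of 2.69 in their WT. The groups did not overlap, which held in this direction for 5.96% of all genes, and Cox6b2 was 3.46-fold higher (1.79 on the log2 scale with SE 0.30, adjusted p = 0.000163 by edgeR). In C1HR it was at 2.04 to 17.3 CPM with a median of 3.98, and in the WT of C1HR at 37.8 to 51.9 CPM with a median of 42.9. Again the groups did not overlap, and it was 7.78-fold lower (-2.96 on the log2 scale with SE 0.30, adjusted p = 3.60e-09 by edgeR). The difference of the effects was -4.83 (SE 0.45, edgeR adjusted p = 2.76e-12). As a share of the summed CPM per kb of Cox6b1 and Cox6b2 it had a median of 8.97% in the libraries labelled DKO, 1.96% in their WT, 2.36% in C1HR and 16.5% in its WT.

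Markers of several blood cell types moved with Cox6b2. Of 14 erythroid genes, 11 rose in the libraries labelled DKO and 14 fell in C1HR. Of 16 granulocyte genes, 15 rose and 16 fell, and of 10 megakaryocyte genes, 10 rose and 10 fell. B lineage genes (15 of 15 higher, then 14 of 15 lower) and cell cycle genes (15 of 15 higher, then 15 of 15 lower) did likewise, and of the T and NK cell genes 9 of 11 rose and 5 of 9 fell. Other lists of blood lineages went the other way. Of 11 macrophage genes, 4 fell and 2 rose in the libraries labelled DKO, and 10 rose and 1 fell in C1HR; of 7 mast cell genes, 5 fell and 2 rose, then 5 rose and 2 fell. Erythroid sums were 5156 to 17012 CPM in the libraries labelled DKO, 671 to 7093 in their WT, 657 to 14292 in C1HR and 27972 to 61409 in its WT. Granulocyte sums were 10247 to 25832, 908 to 16511, 266 to 5915 and 13951 to 20773 CPM in that order, and megakaryocyte sums 1091 to 2666, 60.95 to 1377, 32.6 to 363 and 1457 to 3171 CPM. No gene of these 3 lists was at 0 throughout a group. WT 5 and 6, with the highest erythroid sums of their group (7093 and 3392 CPM), had its highest Cox6b2 (7.13 and 5.89 CPM). C1HR 8 and 9, at erythroid sums of 14292 and 11739 CPM, had the highest Cox6b2 of theirs (13.4 and 17.3 CPM). WT 5 and 6 also had the highest skeletal muscle sums of their group. The other lists that moved with Cox6b2 are not set beside it library by library here. Without WT 5 and 6 the log2 fold change of Cox6b2 was 2.28, and without C1HR 8 and 9 it was -3.71. The part of blood cells or of dividing cells in the result was not tested.

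**Figure D4:**
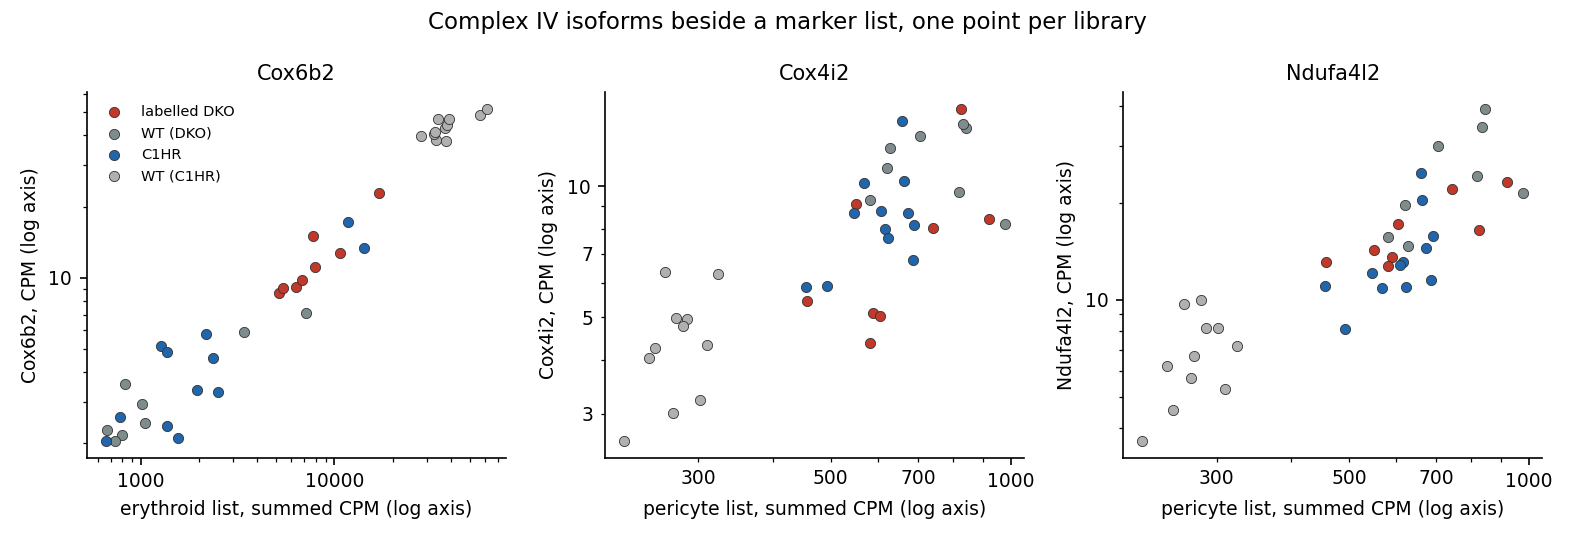
CPM of Cox6b2 against the summed CPM of erythroid genes, and of Cox4i2 and Ndufa4l2 against that of pericyte genes, with 1 point per library and logarithmic axes. The WT libraries of C1HR lie highest for erythroid genes and Cox6b2 (37.8 to 51.9 CPM) and lowest for pericyte genes (225 to 324 CPM).

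Cox4i2 and Ndufa4l2 moved the other way. Cox4i2, a form of subunit 4 known from lung and oxygen-sensing cells, lies at chr2:152579909-152590773 (NCBIM37). It was at 4.38 to 15.1 CPM with a median of 6.73 in the libraries labelled DKO and at 8.18 to 13.9 CPM with a median of 11.7 in their WT. The groups overlapped, and the fall (-0.59 on the log2 scale with SE 0.23, adjusted p = 0.0383 by edgeR) was lost without any 1 of 9 libraries (DKO 3, 4, 5 or 8, or WT 1, 2, 3, 5 or 8; edgeR adjusted p from 0.0511 to 0.0799). With library totals the fall was lost as well (edgeR adjusted p = 0.172). In C1HR Cox4i2 was at 5.88 to 14.1 CPM with a median of 8.43, and in the WT of C1HR at 2.60 to 6.34 CPM with a median of 4.31. The groups overlapped only at their edges, and Cox4i2 rose (0.95 on the log2 scale with SE 0.15, adjusted p = 3.01e-06 by edgeR).

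Ndufa4l2, which hypoxia is known to induce in other cells, lies at chr10:126951995-126954208 (NCBIM37). It was at 12.7 to 23.3 CPM with a median of 15.4 in the libraries labelled DKO and at 14.7 to 39.2 CPM with a median of 22.9 in their WT. The groups overlapped, and the fall (-0.59 on the log2 scale with SE 0.21, adjusted p = 0.0242 by edgeR) was lost without WT 1, 2 or 8 (edgeR adjusted p from 0.0529 to 0.0675). With library totals the fall was lost as well (edgeR adjusted p = 0.0989). In C1HR Ndufa4l2 was at 8.11 to 24.8 CPM with a median of 12.5, and in the WT of C1HR at 3.63 to 9.997 CPM with a median of 6.68. It rose 2.01-fold (1.01 on the log2 scale with SE 0.18, adjusted p = 1.03e-05 by edgeR), with overlap, and the difference of the effects was 1.54 (SE 0.28, edgeR adjusted p = 5.43e-06). Pericyte markers moved with both isoforms in C1HR, where 5 of 5 genes tested rose; in the libraries labelled DKO 1 of 6 fell. Their sums were 457 to 921 CPM in the libraries labelled DKO, 582 to 979 in their WT, 455 to 690.3 in C1HR and 225 to 324 in its WT, with no gene at 0 throughout a group. Other lists rose in C1HR as well: 13 of 13 osteoblast, 8 of 9 osteocyte and 7 of 8 endothelial genes tested. So did 12 of 14 osteoclast, 10 of 11 macrophage and 5 of 7 mast cell genes, where 2, 1 and 2 fell. The osteoblast list includes Pth1r, the gene that the C1HR mice carry in activated form, so its rise is no sign of a cell type. Phex is in both the osteoblast and the osteocyte list. In the libraries labelled DKO, 6 of 13 osteoblast genes fell and none rose, 1 of 10 osteocyte genes fell and 4 rose, and 1 of 8 endothelial genes fell and 1 rose. There 12 of 14 osteoclast genes fell and 1 rose, 4 of 11 macrophage genes fell and 2 rose, and 5 of 7 mast cell genes fell and 2 rose. The part of any of these cell types in the result was not tested.

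The muscle isoforms Cox6a2, Cox7a1 and Cox8b, which replace Cox6a1, Cox7a2 and Cox8a in skeletal and heart muscle, passed no test with all libraries. Cox6a2 was at 6.23 to 57.01 CPM with a median of 19.3 in the libraries labelled DKO and at 6.09 to 199 CPM with a median of 23.8 in their WT. The WT group held both the lowest and the highest library (-1.47 on the log2 scale with SE 0.70, adjusted p = 0.0837 by edgeR). It was called lower without DKO 6 or without WT 7 (edgeR adjusted p from 0.0456 to 0.0462). WT 5 and 6, at 171 and 199 CPM, also had the highest sums of 18 skeletal muscle genes, 13492 and 37571 CPM. Without both the log2 fold change of Cox6a2 was -0.058, and those of Cox7a1 and Cox8b turned from -0.92 and -1.33 to 0.65 and 0.33. In C1HR the log2 fold changes were -0.39, 0.57 and 0.46. Of the 18 muscle genes, 2 fell in the libraries labelled DKO and the others passed no test in either experiment. Their sums were 295 to 10817 CPM in the libraries labelled DKO, 1414 to 37571 in their WT, 186 to 3173 in C1HR and 57.8 to 3851 in its WT, with no gene at 0 throughout a group, and their part in the result was not tested.

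**Figure D5:**
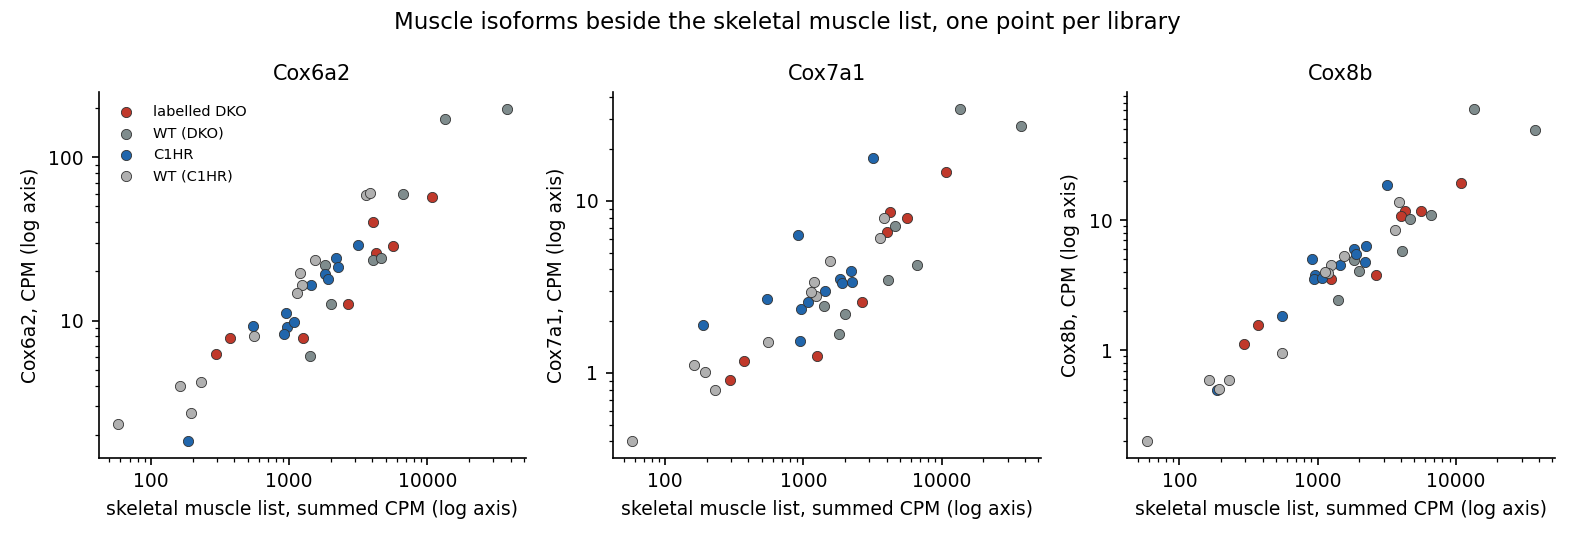
CPM of Cox6a2, Cox7a1 and Cox8b against the summed CPM of 18 skeletal muscle genes, with 1 point per library and logarithmic axes. WT 5 and 6 of the first experiment have the highest muscle sums, 13492 and 37571 CPM.

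Osteoclast genes fell beside the respiratory genes in the libraries labelled DKO (12 of 14, with 1 higher) and rose in C1HR (12 of 14, with 2 lower), where more respiratory genes fell than rose. Their sums were 4916 to 10823 CPM in the libraries labelled DKO, 5574 to 33618 in their WT, 12512 to 20548 in C1HR and 7649 to 9616 in its WT. Osteoblast genes, counted above, shifted further in C1HR. Their sums were 73593 to 203116 CPM in the libraries labelled DKO, 88907 to 265523 in their WT, 256699 to 446791 in C1HR and 55061 to 99774 in its WT, so the C1HR range lay above that of its WT. No gene of either list was at 0 throughout a group, and their part in these results was not tested.

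Other mitochondrial genes were counted from fixed lists. For comparison, 30.9% of all genes tested fell and 24.1% rose in the libraries labelled DKO, and 40.6% fell and 43.7% rose in C1HR. Of 16 genes of the tricarboxylic acid cycle and pyruvate dehydrogenase, 10 fell in the libraries labelled DKO and 9 in C1HR. Dlst, a subunit of the oxoglutarate dehydrogenase complex, fell in C1HR (-0.62 on the log2 scale with SE 0.045, adjusted p = 2.56e-12 by edgeR). Of 29 other respiratory chain and ATP synthase genes tested, 16 fell and 2 rose in the libraries labelled DKO, and 14 fell and 5 rose in C1HR. Etfdh, which passes electrons to ubiquinone, fell in the labelled DKO libraries (-0.44 on the log2 scale with SE 0.063, adjusted p = 5.88e-05 by edgeR). Slc25a4, the muscle and heart form of the ADP/ATP carrier, rose in C1HR (1.03 on the log2 scale with SE 0.10, adjusted p = 1.08e-09 by edgeR), and Lrpprc, which stabilises mitochondrial mRNA, fell there (-1.23 on the log2 scale with SE 0.084, adjusted p = 8.43e-13 by edgeR).

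Of 19 genes of mitochondrial biogenesis and mitochondrial DNA expression tested, 4 fell and 5 rose in the libraries labelled DKO. In C1HR 11 fell and 2 rose. Over all genes tested, 30.9% fell and 24.1% rose in the former, and 40.6% and 43.7% in the latter. Esrra, the oestrogen-related receptor alpha, fell in the labelled DKO libraries (-0.43 on the log2 scale with SE 0.085, adjusted p = 0.000641 by edgeR) and rose in C1HR (0.81 on the log2 scale with SE 0.082, adjusted p = 1.09e-09 by edgeR). Gabpb1, a subunit of GABP, rose in the labelled DKO libraries (0.42 on the log2 scale with SE 0.065, adjusted p = 0.000109 by edgeR) and fell in C1HR (-0.96 on the log2 scale with SE 0.065, adjusted p = 5.91e-13 by edgeR). Nrf1, named for the motif searched in the promoters and after its values were seen, rose in the labelled DKO libraries (0.41 on the log2 scale with SE 0.078, adjusted p = 0.000470 by edgeR) and fell in C1HR (-1.40 on the log2 scale with SE 0.10, adjusted p = 3.43e-12 by edgeR).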

How the data were processed

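Total RNA of mouse femoral cortical bone was sequenced as single-end 50-base reads. Per the submitters' processing notes and the series' design text, the authors aligned with STAR to mm9 and counted reads per gene with HTSeq 0.6.0; edgeR is also named. The deposited values are whole-number counts for 37583 genes and 5 tallies of unassigned reads. Those tallies held 33.8% to 61.2% of all that was tallied for a library and were left out. The series' design text calls the counted values CPM; in the files they are whole numbers whose gene totals differ between libraries (11444686 to 24922490), and they were treated as counts. Strand was not used in counting, per the name of each file, so overlapping genes and antisense partners share reads or lose them.

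Counts were fitted with edgeR 4.0.16 (R 4.3.3): filterByExpr (minimum count 10, minimum total 15), trimmed-mean scaling, robust quasi-likelihood test, Benjamini-Hochberg adjustment over all genes tested, each mutant against its own WT, and all 4 groups together for the difference of the effects. SE is the log2 fold change divided by the square root of F. DESeq2 1.42.0, limma 3.58.1 and other scalings, filters and left-out libraries were alternatives. CPM used scaled library sizes within each experiment, so no level was tested across experiments. Tables were handled with Python 3.11.15. Gene positions and exon lengths came from an NCBIM37 annotation, which matched 37168 identifiers. Promoters came from RefSeq; Cox4i1, Cox4i2 and Ndufa4l2 have no entry. The fits were tested on simulated counts.

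The members, the gene lists and the tests were chosen with earlier results of these data known. Genes were named by rule: the 5 highest and 5 lowest called fold changes with a mean of at least 1 CPM, the smallest p of each complex and of the assembly factors, tissue isoforms with their partners, the Atp5g genes and core subunits, and for the difference the 3 smallest p of either sign. Some genes that this rule or the lists name are not reported here. Sdhd is shown for its promoter and was chosen after its values were seen. No pair of replicates agreed within sampling noise.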

Additional observations from a re-analysis of the deposited data

Results flagged for a closer look

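Within a group of 8 libraries, a value was picked out when the gap to its nearest neighbour exceeded 0.526 of the group's range, which chance gives in about 1 of 20 groups; the groups of 11 and 12 libraries were not tested. WT 5 of the libraries labelled DKO was the highest of its group for Atp5e (143 CPM), Cox17 (44.8), Cox6b1 (224), Cox7a2 (163), Ndufa13 (156), Ndufa4 (241), Ndufaf3 (13.2), Ndufb4 (11.2), Sdhb (182) and Uqcr11 (48.8 CPM). WT 6 was the highest for Ndufs1 (127 CPM) and Sdha (274) and the lowest for Atp5g2 (0.360 CPM). DKO 1 was the highest for Atp5g3 (146 CPM), Cox17 (43.8), Cox6a1 (176), Cox6b2 (22.7), Cox8a (187), Ndufb7 (94.3) and Uqcr10 (68.9 CPM). DKO 2 was the highest for Cox4i2 (15.1 CPM), DKO 6 for Ndufs3 (31.9 CPM), and DKO 4 the lowest for Uqcr11 (12.8 CPM).

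The effects of the experiments differed, by the test of the difference itself (C1HR minus DKO, log2, edgeR adjusted p under 0.05), for these named genes. Positive differences were found in complex I for Ndufa13 (0.97), Ndufb2 (0.68), Ndufs3 (0.22) and Ndufs8 (0.75). Complexes II and III had them for Sdhb (0.72), Uqcr10 (0.90) and Uqcr11 (0.72). In complex IV they were Cox4i1 (0.49), Cox4i2 (1.47) and Ndufa4l2 (1.54). In complex V they were Atp5d (0.26), Atp5e (0.83) and Atp5g1 (0.53), and elsewhere Cox10 (0.36) and Cox7a2l (0.90). Negative differences were those of Atp5a1 (-0.21), Atp5b (-0.37), Cox11 (-0.9983), Cox17 (-1.91), Cox5a (-0.31), Cox6b2 (-4.83), Ndufaf3 (-1.08), Ndufb7 (-0.79), Ndufs1 (-0.54), Ndufv1 (-0.39) and Uqcrc1 (-0.24). With library totals, only Cox4i2, Cox7a2l, Ndufa13 and Ndufa4l2 of the positive differences were still called. All of the negative ones named here were.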

How the results depend on the processing

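Alternatives that leave out WT 5 with C1HR 7 and 11, C1HR 7 with 11, or genes with repeated windows were chosen after seeing the data. In the libraries labelled DKO, library totals gave 15 genes lower and 4 higher, limma 3 higher, and leaving out WT 5 and 6 gave 4 higher. Over single libraries left out, 58 to 72 were lower and 1 to 4 higher. In C1HR, library totals gave 68 lower and 2 higher, limma 63 lower, leaving out C1HR 7 and 11 gave 67 lower, and leaving out C1HR 8 and 9, or genes that overlap another gene, gave 5 higher. Over single libraries left out, 38 to 53 were lower and 8 to 9 higher. For the difference, library totals gave 4 higher and 46 lower, and leaving out WT 5 and C1HR 7 and 11 gave 31 lower; the genes' median minus that of all genes turned to -0.052 with limma and to -0.12 without those libraries. No share of all genes called was counted for any alternative, and the cause of these changes was not tested.

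Signs turned for these log2 fold changes. In the libraries labelled DKO, Cox7a1 was 0.51 and Cox8b 0.12 with limma, and 0.65 and 0.33 without WT 5 and 6; with library totals Atp5g2 was 0.048, Ndufs1 0.0074 and Uqcrc1 0.00022. In C1HR, library totals gave Ndufs8 -0.069, Cox4i1 -0.33, Atp5g2 -0.17, Sdhb -0.23, Ndufb5 -0.13, Ndufa13 -0.10, Uqcr10 -0.27 and Cox7a2l -0.24, the last of these called higher with trimmed-mean factors and lower here. Limma gave Cox6a2 0.22, Cox4i1 -0.20, Sdhb -0.046 and Uqcr10 -0.078. DESeq2 and size factors by its method (RLE) both gave Cox4i1 -0.011. Without C1HR 7 and 11, Cox7a1 was -0.061, Cox4i1 -0.23, Sdhb -0.086 and Uqcr10 -0.13; without C1HR 8 and 9, Cox4i1 was -0.0087. Over single libraries left out, Cox4i1 ran from -0.090 to 0.090 and Uqcr10 from -0.0027 to 0.16. The rise of Cox7a2l in C1HR was not called with RLE, DESeq2 or limma.

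Same-numbered libraries correlated at -0.26 to 0.31 (8 pairs) and -0.18 to 0.34 (11 pairs) in their deviations from the group means. In each experiment 2 were closest to their own number. The labels state no pairing, and these correlations show none but cannot exclude one. With the replicate block, 59 genes were lower and 1 higher in the libraries labelled DKO, and 42 lower and 8 higher in C1HR, where Cox6a2 was 0.12 and Cox4i1 -0.019. Depth limits the genes with the fewest reads most. Of the exon windows of Atp5g2 and Atp5l, 100% and 86.5% are repeated, and the part of this in their levels was not tested.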
